A study of Homo sapiens with 12 samples.

Results

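Of the 12 libraries of the series, 4 are described here: the 2 libraries of VAL cells given wild-type BCL7A and the 2 libraries of VAL cells given an empty vector. They were chosen by their labels, without use of any measured value. The study used a pair of established human lines of diffuse large B-cell lymphoma, VAL and OCI-LY1. Each line received wild-type BCL7A, a splice site mutant called delta27-BCL7A, or the vector alone. Per the labels, the vector was SAR2(LTR)-BCL7A-IRES-ZsGreen1 or its empty form, the cells were infected 3 times at a multiplicity of infection of 2, and cells positive for the reporter were sorted. BCL7A was delivered as both its short and its long isoform. The 2 replicates of a group were independent transductions, harvested at day 17 for VAL and day 10 for OCI-LY1, and polyadenylated RNA was sequenced with a stranded library kit. Every group therefore shares the vector backbone, the repeated infection and the sort, and all 4 libraries come from 1 cell line. The comparison asks which transcripts changed when a cell line that already holds BCL7A transcripts received wild-type BCL7A from a vector. The counts do not show whether the line's own BCL7A gene is intact.

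BCL7A is a subunit of the BAF (mammalian SWI/SNF) complexes, which use ATP to move or eject nucleosomes and so open promoters and enhancers. BCL7B and BCL7C are its paralogs and occupy the same place in the complex. BCL7A was first described at a translocation breakpoint in a B cell lymphoma, and its early coding sequence is mutated in lymphomas of germinal centre B cells.

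The 4 libraries held 21839547 to 22762233 counts assigned to genes. The wild-type replicates differed from each other more than the replicates of any other group did, with a chi-square per degree of freedom of 6.89 over genes against 1.48 to 3.00 elsewhere. Wild-type replicate 1 had fewer counts from long transcripts than wild-type replicate 2: across 8913 genes at 10 CPM or more (CPM being counts scaled to a common library size), the Spearman correlation of their log ratio with transcript length was -0.53, given as a description. Of the 8918 genes at that level, 9 differed by over 1.5-fold between the wild-type replicates, and 1 of 8931 did between the empty vector replicates. The proto-oncogene REL, an NF-kB subunit, was at 128 and 210 CPM in wild-type replicates 1 and 2, beside 207 and 189 CPM in the empty vector replicates. Where a call is said to end without a library, the same fit with that 1 library left out no longer called the gene, and without either replicate means that leaving out the one or the other had this effect. B cell markers summed to 3250 to 3452 CPM per library. The markers of other lineages were near 0: T cell markers summed to 3.09 to 5.15 CPM, NK cell markers to 1.39 to 1.99, myeloid markers to 2.33 to 3.13, stromal and epithelial markers to 0.501 to 1.53, and erythroid markers to at most 0.898. GNLY, S100A8, S100A9, HBA1, ALAS2, COL1A2, COL3A1, EPCAM and KRT19 had no count in any of the 4.

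BCL7A (ENSG00000110987.8, chromosome 12, 122019422 to 122062044 on the plus strand, GRCh38) was at 291 and 283 CPM with empty vector and at 454 and 472 CPM with wild-type BCL7A. Both transduced libraries lay well above both controls, a rise of 1.61-fold (a log2 fold change of 0.69 with SE 0.05, and an adjusted p of 1.81e-12 in edgeR's quasi-likelihood test). The counts do not divide vector transcripts from those of the cell's own gene. Of the 29 BAF subunits and BCL7 relatives listed, 28 were tested and 3 passed, BCL7A included, where 1.62% of all genes tested passed. BICRAL, a subunit of the non-canonical BAF complex, was at 61.6 and 57.9 CPM in the empty vector libraries and 40.3 and 46.2 with added BCL7A and fell by 0.47 on the log2 scale (SE 0.07, edgeR adjusted p = 2.25e-05). Its paralog BICRA stood at -0.14 without passing. ACTB, which encodes the actin that BAF complexes share with the cytoskeleton, rose by 0.20 (SE 0.05), a call lost without control replicate 1 and also without either wild-type replicate. The paralogs BCL7B and BCL7C were at -0.02 and 0.01, and the ATPases SMARCA4 and SMARCA2 at 0.05 and 0.16. None of these 4 passed. The median log2 fold change of the 28 genes was 0.02, beside 0.00 over all genes tested, and its 3 calls became 2 without empty vector replicate 1 or without either wild-type replicate.

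Of 17057 genes tested, 276 passed the edgeR quasi-likelihood test at an adjusted p of 0.05 (1.62%), 151 higher (0.885%) and 125 lower (0.733%) with wild-type BCL7A. An unadjusted p under 0.05 was reached by 1975 genes (11.6%). In each of the 276, both wild-type libraries lay on the same side of both empty vector libraries. Both wild-type libraries also lay above both controls in 3236 genes tested and below them in 3064, which is 19% and 18% of the genes, so a lack of overlap alone carries little weight with 2 libraries a group. The changes were small: the median was 1.29-fold among higher genes and 1.33-fold (taken as empty vector over wild-type) among lower ones. A change of at least 1.5-fold was seen in 35 higher and 38 lower genes, and one of at least 2-fold in 12 and 6. A test against a minimum log2 fold change of 1 called 0 genes, with 43 at an unadjusted p under 0.05. The p-values rest on the spread between independent transductions, estimated over all 12 libraries of both lines and with information shared between genes. The wild-type replicates differed from each other more than those of any other group, so this shared spread may be too small for them. The fits with a library left out share their spread in the same way. The difference tested is that of 1 line. With VAL libraries alone 146 genes were called, and with the 4 libraries alone 126. Where every library was left out in turn, 80 of the 276 genes kept their call, 50 higher and 30 lower. Among the higher ones were BCL7A, CR2, PRKCB, PTPN6, TNF, LTB, IRF4, PIM1, SERPINA9 and CD27, and among the lower ones BICRAL, TERT, DEPTOR, ABCA1, SLC7A11, PSAT1, FCRL1 and VEGFA. Under all 14 alternatives with a threshold on p alone, 77 of them kept it. Without empty vector replicate 1 the count fell to 112 genes, 107 of them shared with the 276, and without wild-type replicate 2 it rose to 497, 197 of them shared.

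**Figure D1:**
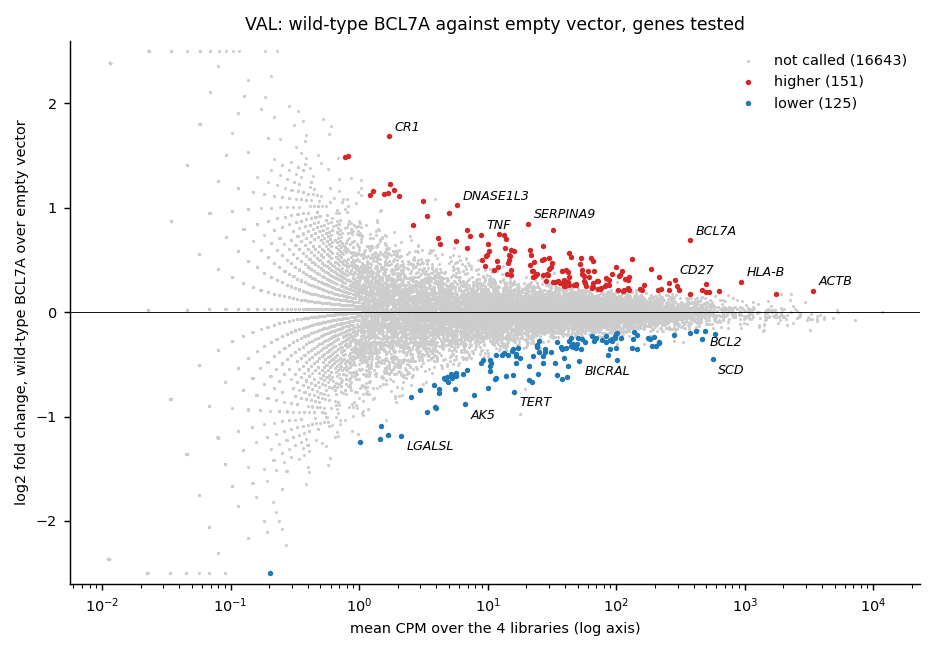
Each point is a gene tested, with its mean CPM over the 4 VAL libraries on a log axis and its log2 fold change, wild-type BCL7A over empty vector (138 genes without a count in these libraries are not drawn, and 68 beyond 2.5 are drawn at 2.5). The 151 genes called higher and the 125 called lower lie mostly within a log2 fold change of 1, and BCL7A stands out among genes of its level.

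**Figure D2:**
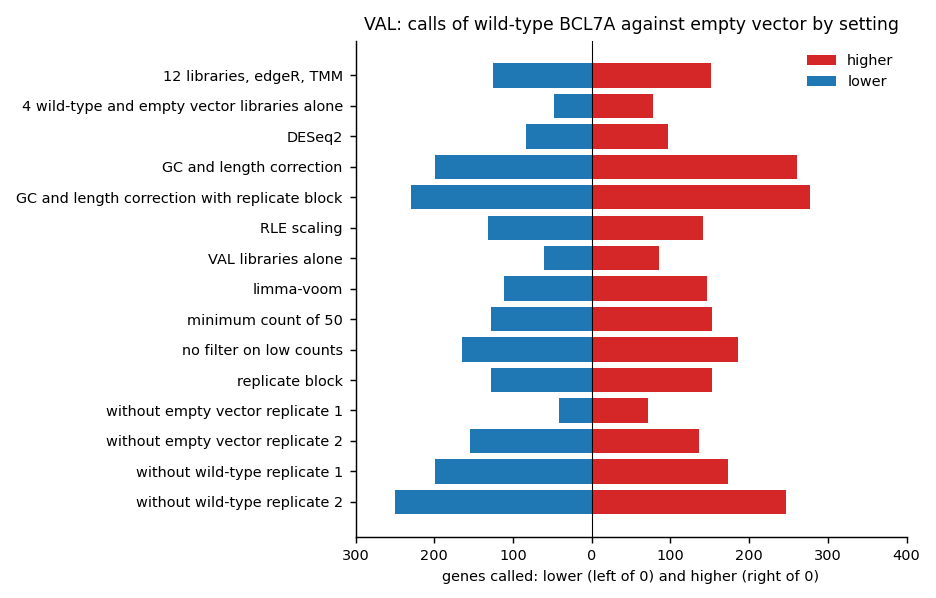
Bars give the number of genes called lower (blue, to the left) and higher (red, to the right) in VAL wild-type BCL7A against empty vector under each setting, the first bar being the fit reported here (the test with a minimum fold change, with 0 calls, is not drawn). Of the bars drawn, the total is lowest without empty vector replicate 1, at 112 genes, and highest with the GC and length correction and replicate block, at 508.

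Of 30 B cell receptor signalling genes, 4 rose: CR2, PRKCB, PTPN6 and PIK3CD. CR2 (CD21), which lowers the threshold of the B cell receptor, was at 26.4 and 21.4 CPM in the control pair and 41.3 and 40.99 in the wild-type pair. The 2 wild-type libraries were nearly equal and stood apart from the controls, a rise of 1.73-fold (log2 fold change 0.79, SE 0.09, edgeR adjusted p = 5.15e-07). CR1 (CD35), the neighbouring complement receptor gene 6252 bases downstream on chromosome 1, was at 1.18 and 0.449 CPM in the controls and 2.35 and 2.91 in the wild-type libraries (log2 fold change 1.68, SE 0.33, edgeR adjusted p = 0.00249). Its level is low, and the call ended without empty vector replicate 2. PRKCB, the protein kinase C isoform that carries the B cell receptor signal towards NF-kB, was at 23.4 and 19.04 CPM in the empty vector libraries and 31.9 and 33.9 with added BCL7A. It rose by 0.63 on the log2 scale (SE 0.08, edgeR adjusted p = 1.05e-05). PTPN6 (SHP-1), a tyrosine phosphatase that restrains the same receptor, was at 83.4 and 85.2 CPM in the control pair and 119.6 and 108 in the wild-type pair, a rise of 0.44 (SE 0.06, edgeR adjusted p = 2.25e-05). PIK3CD, the catalytic subunit of PI3K delta, rose by 0.26 (SE 0.05, edgeR adjusted p = 0.0012), a call that ended without empty vector replicate 1. No listed gene was lower, and in either direction 1.62% of all genes tested passed. The median of the 30 was 0.07. The receptor chains CD79A and CD79B stood at 0.04 and 0.12 and the kinases SYK, BTK and LYN at 0.07, -0.09 and 0.02, none past the test. Without wild-type replicate 2 the list had 7 higher and 1 lower, and with the GC and length correction 4 and 1.

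**Figure D3:**
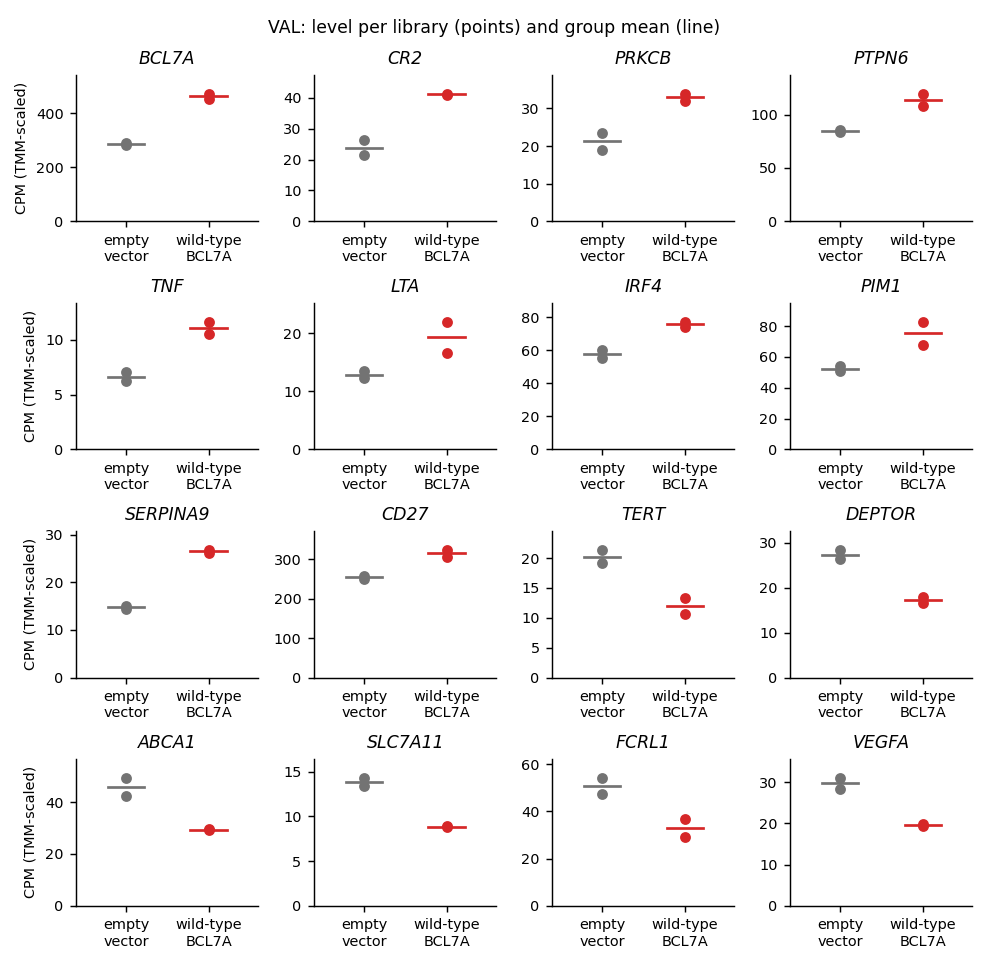
CPM of 16 genes in VAL: points are single libraries, lines the group means of 2 libraries, grey for empty vector and red for wild-type BCL7A, with each axis starting at 0. In every panel the 2 groups are apart, and relative to the mean the red points lie farthest apart for LTA and PIM1 among the genes that rose.

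NF-kB is a family of dimeric transcription factors that B cell receptor, CD40 and Toll-like receptor signals release into the nucleus, where they bind kappaB sites and drive cytokine, survival and feedback genes. Of 29 targets listed, 28 were tested, and 7 passed as higher and 0 as lower, where 0.885% of all genes tested passed as higher. Their median log2 fold change was 0.18. The count moved with the library left out: 4 and 5 were higher when empty vector replicate 1 or 2 was dropped, 3 when wild-type replicate 1 was, and 12 higher with 1 lower when wild-type replicate 2 was, where the median was 0.28.

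Of the 23 listed targets with a RefSeq promoter window (GRCh38.p14, 250 bases before to 50 after the gene start), 9 held a match to the kappaB consensus on either strand (39.1%). Among genes called higher, 14 of the 115 with a window held a match (12.2%), among genes called lower 4 of 92 (4.35%), among all genes tested with a window 6.38%, and among all 27305 windows 5.72%. These shares are descriptions, not adjusted for the base composition of the windows, and a match is not evidence of binding. The windows of LTB, TNFAIP3 and JAK3 are printed because these 3 genes rose and their windows hold a match, with the kappaB matches in capitals, each 5′ to 3′ on the strand of its gene. LTB lies at chr6:31582376-31582675 on the minus strand, TNFAIP3 at chr6:137867009-137867308 on the plus strand and JAK3 at chr19:17847933-17848232 on the minus strand.
LTB: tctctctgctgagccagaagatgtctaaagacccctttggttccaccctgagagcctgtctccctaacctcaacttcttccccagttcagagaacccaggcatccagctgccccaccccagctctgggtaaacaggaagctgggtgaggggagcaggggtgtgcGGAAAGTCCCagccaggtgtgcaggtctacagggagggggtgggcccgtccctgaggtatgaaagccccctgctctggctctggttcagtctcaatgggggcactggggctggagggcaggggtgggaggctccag
TNFAIP3: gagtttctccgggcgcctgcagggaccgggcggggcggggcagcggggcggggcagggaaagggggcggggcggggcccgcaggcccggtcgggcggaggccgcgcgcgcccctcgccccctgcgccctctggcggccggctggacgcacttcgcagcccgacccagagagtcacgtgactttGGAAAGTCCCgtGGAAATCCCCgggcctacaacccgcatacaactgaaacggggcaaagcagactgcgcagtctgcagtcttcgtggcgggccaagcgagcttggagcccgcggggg
JAK3: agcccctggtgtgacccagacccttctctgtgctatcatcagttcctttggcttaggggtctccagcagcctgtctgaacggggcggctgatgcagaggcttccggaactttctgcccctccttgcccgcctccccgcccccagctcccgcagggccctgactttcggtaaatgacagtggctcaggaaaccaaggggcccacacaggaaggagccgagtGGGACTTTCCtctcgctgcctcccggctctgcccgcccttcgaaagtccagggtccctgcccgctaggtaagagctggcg
The TNFAIP3 window holds 2 matches, and those of LTB and JAK3 hold 1 each.

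The tumour necrosis factor cluster on chromosome 6 rose as a whole: LTA, TNF and LTB lie within 31572054 to 31582522 (GRCh38), and all 3 passed the test. TNF, the inflammatory cytokine, was at 7.05 and 6.196 CPM in the controls and 11.6 and 10.5 in the wild-type libraries (log2 fold change 0.74, SE 0.12, edgeR adjusted p = 0.00029). LTA, which encodes soluble lymphotoxin, was at 13.4 and 12.3 CPM in the empty vector libraries and 21.97 and 16.7 with added BCL7A (0.59, SE 0.11, edgeR adjusted p = 0.00128). The wild-type replicates of LTA differed among themselves more than the controls did, and the call ended without wild-type replicate 1. LTB, the membrane partner of lymphotoxin whose promoter is printed above, was at 109 and 102 CPM in the control pair and 135 and 126 in the wild-type pair. It rose by 0.31 (SE 0.05, edgeR adjusted p = 0.000442), and its call held without each library in turn, as did that of TNF.

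IRF4, a transcription factor of activated B cells and plasma cells, was at 60.1 and 55.3 CPM in the controls and 77.3 and 74.3 in the wild-type libraries. The groups were clearly apart (log2 fold change 0.39, SE 0.06, edgeR adjusted p = 7.24e-05). The serine kinase PIM1, which is not on the NF-kB list but on that of activated cells, was at 53.9 and 50.96 CPM in the empty vector libraries and 82.8 and 67.8 with added BCL7A (0.52, SE 0.07, edgeR adjusted p = 9.23e-06). Smaller rises were called for TNFAIP3 (A20), the deubiquitinase that ends NF-kB signalling (0.28, SE 0.08), for the adhesion ligand ICAM1 (0.27, SE 0.07) and for the lymph node homing receptor CCR7 (0.35, SE 0.09). These 3 calls are fragile. Those of TNFAIP3 and ICAM1 ended without either empty vector replicate or without wild-type replicate 1, and that of CCR7 without empty vector replicate 1 or wild-type replicate 1. Among members that did not pass, the inhibitors NFKBIA and NFKBIE stood at 0.15 and 0.18, the subunits NFKB1, NFKB2 and RELB at 0.14, 0.14 and 0.13, and the survival gene BCL2A1 at 0.33. REL stood at -0.23. JAK3 and MIR155HG, which are on no list, were picked after their values were seen. The kinase of the common gamma chain receptors, JAK3, was at 26.1 and 26.6 CPM in the control pair and 33.7 and 39.3 in the wild-type pair (0.47, SE 0.08, edgeR adjusted p = 0.000496). MIR155HG, the host transcript of miR-155, was at 13.2 and 11.1 CPM without and 17.9 and 17.5 CPM with added BCL7A (0.54, SE 0.11, edgeR adjusted p = 0.00322), a call that ended without empty vector replicate 2.

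Surface and stage genes of B cells moved in both directions. SERPINA9, a serine protease inhibitor characteristic of germinal centre B cells, was at 15.1 and 14.3 CPM in the controls and 26.8 and 26.2 in the wild-type libraries. Its replicates were tight and the groups far apart, a rise of 1.801-fold (log2 fold change 0.85, SE 0.09, edgeR adjusted p = 3.42e-07). RGS13, a regulator of chemokine receptor signalling that is also typical of the germinal centre, fell by 0.24 (SE 0.05), a call that ended without empty vector replicate 1. These were the 2 calls among 22 germinal centre genes tested, where 1.62% of all genes tested passed, and the median of the 22 was -0.04. There was 1 call without empty vector replicate 1, and 3 in each fit without 1 of the other libraries. CD27, the TNF receptor family marker of memory B cells, was at 257 and 249.8 CPM in the empty vector libraries and 323 and 307 with added BCL7A (0.31, SE 0.05, edgeR adjusted p = 6.48e-05). Its ligand CD70 rose by 0.24 (SE 0.06), a call that ended without either empty vector replicate or without wild-type replicate 1. The antisense transcript CD27-AS1, which overlaps CD27, was called lower (-0.41, SE 0.10), but its call ended without wild-type replicate 1 or either empty vector replicate, and the strand setting of the counting is not given in the sources used here.

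The Fc receptor-like genes FCRL1 and FCRL2, which lie 17271 bases apart on chromosome 1 and modulate B cell receptor signals, fell. FCRL1 was at 54.1 and 47.2 CPM in the control pair and 29.2 and 36.6 in the wild-type pair (log2 fold change -0.62, SE 0.08, edgeR adjusted p = 2.36e-05), and its call held without each library. FCRL2 was at 11.1 and 9.56 CPM in the empty vector pair and 7.12 and 7.58 CPM in the wild-type pair (-0.49, SE 0.12, edgeR adjusted p = 0.0288). The call of FCRL2 ended without empty vector replicate 1 or wild-type replicate 1. The costimulatory ligand CD86 fell by 0.33 (SE 0.07), and TNFRSF17 (BCMA), a plasma cell survival receptor, by 0.38 (SE 0.08). JCHAIN, which joins IgM and IgA into polymers, fell by 0.21 (SE 0.05). All 3 calls ended without empty vector replicate 1, and those of TNFRSF17 and JCHAIN also without wild-type replicate 2. Over all genes tested, 0.885% passed as higher and 0.733% as lower. Of 30 B cell surface antigens tested, 4 were called higher (CR1, CR2, CD27 and CD70) and 4 lower (FCRL1, FCRL2, CD86 and TNFRSF17), with a median of 0.04. Without empty vector replicate 1 they were 4 and 1. Of 18 activated and plasma cell genes, IRF4 and PIM1 were higher and TNFRSF17 and JCHAIN lower, with no lower gene without empty vector replicate 1 or wild-type replicate 2. The pan-B marker CD22 stood at -0.14 without passing. The summed plasma cell markers, of which JCHAIN and TNFRSF17 are part, were at 927 and 891 CPM in the controls and 877 and 787 CPM in the wild-type libraries. Fewer cells of a kind and less RNA per cell cannot be told apart in such bulk libraries.

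Immunoglobulin heavy chain constant genes went opposite ways. IGHE transcripts were at 49.9 and 48.9 CPM in the controls and 33.6 and 35.5 in the wild-type libraries (log2 fold change -0.52, SE 0.07, edgeR adjusted p = 5.31e-06). IGHG1, picked after its values were seen, was at 112 and 109 CPM in the empty vector libraries and 141 and 138 with added BCL7A (0.34, SE 0.05, edgeR adjusted p = 6.48e-05). Both calls held without each library, but the constant genes resemble each other and their reads cannot be divided with certainty.

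Of the 23 adhesion genes tested, 4 were called, all higher, where 0.885% of all genes tested passed as higher. The median of the 23 was -0.01, and 13 of them had a negative log2 fold change. The transmigration glycoprotein CD99 was at 9.88 and 11.7 CPM in the controls and 16.8 and 16.4 in the wild-type libraries (0.62, SE 0.10, edgeR adjusted p = 0.00015). ITGB2, the beta chain of the leukocyte integrins, rose by 0.50 (SE 0.10), a call that ended without empty vector replicate 2. ICAM1, already given among the NF-kB targets, belongs to them too, and the list had 2 calls without empty vector replicate 2. The call of CD99 held without each library.

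Of 28 cytokines, chemokines and receptors tested, 5 were higher and 1 lower (median 0.05), and 2 and 1 without wild-type replicate 1. Over all genes tested, 0.885% passed as higher and 0.733% as lower. The 5 called higher were TNF, LTA, LTB, CCR7 and CCL17, a chemokine that attracts CCR4-positive T cells. CCL17 was at 1.502 and 0.808 CPM in the empty vector libraries and 2.67 and 2.54 with added BCL7A, and this low-level call ended without empty vector replicate 2 or wild-type replicate 1. CXCR5, the receptor that draws B cells into follicles, was at 66.8 and 73.7 CPM in the control pair and 59.3 and 60.6 in the wild-type pair, a fall of 0.23 (SE 0.06) whose call ended without empty vector replicate 2 or wild-type replicate 1. Among antigen presentation genes, HLA-B rose by 0.29 (SE 0.05, edgeR adjusted p = 0.000585) and kept its call without each library, although reads of near-identical HLA genes cannot be divided with certainty. The MHC class II invariant chain CD74 (0.18, SE 0.05) was called too, but not without empty vector replicate 1 or wild-type replicate 1. In all, 2 of 17 class I genes and 1 of 15 class II genes were higher, with medians of 0.03 and 0.04. Without wild-type replicate 2 they were 5 and 2. Of the 34 interferon response genes tested, 0 passed in edgeR, DESeq2 or limma-voom, with 7 at an unadjusted edgeR p under 0.05 and a median of -0.02. The GC and length correction called 1 of them higher, as did the fit without empty vector replicate 2, where the median was 0.11.

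Further rises came from single genes outside these groups. DNASE1L3, a secreted nuclease that digests chromatin in microparticles, was at 4.32 and 3.32 CPM in the controls and 8.55 and 7.02 in the wild-type libraries (log2 fold change 1.03, SE 0.17, edgeR adjusted p = 0.000233). KCNJ1, an inward rectifier potassium channel, was at 3.41 and 3.41 CPM in the controls and 6.62 and 6.56 CPM with wild-type BCL7A, with tight replicates in both groups (0.95, SE 0.17, edgeR adjusted p = 0.000496). DUSP6, the phosphatase that ERK signalling induces to switch ERK off, was at 2.37 and 2.29 CPM without and 4.69 and 4.16 CPM with added BCL7A (0.92, SE 0.18, edgeR adjusted p = 0.00182). It was the 1 call among 21 immediate early and ERK feedback genes (median 0.11), where 1.62% of all genes tested passed. CYP4F3, a leukotriene hydroxylase, rose by 1.07 (SE 0.20), the palmitoyltransferase ZDHHC14 by 0.79 (SE 0.14) and KREMEN2, a Dickkopf receptor, by 0.74 (SE 0.13). RAG1, the recombinase of antigen receptor genes, was at 5.46 and 5.52 CPM in the empty vector libraries and 7.95 and 10.2 with added BCL7A (0.72, SE 0.13, edgeR adjusted p = 0.000944). The p53 relative TP63 was at 38.4 and 34.7 CPM in the control pair and 50.4 and 55.03 in the wild-type pair (0.53, SE 0.07, edgeR adjusted p = 9.23e-06). PLEKHG1, a guanine nucleotide exchange factor, was at 35.2 and 34.1 CPM in the empty vector pair and 49.05 and 53.9 CPM in the wild-type pair (0.57, SE 0.07, edgeR adjusted p = 1.8e-06). The calls of these 9 genes held without each library, although DESeq2 did not call CYP4F3. The adaptor SKAP1 (1.11, SE 0.27) and the scavenger receptor of CXCL12, ACKR3 (0.75, SE 0.13), were also called. SKAP1 lost its call without either empty vector replicate or wild-type replicate 1, and ACKR3 without empty vector replicate 2.

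In the 3 lists of lipid genes (LXR targets, fatty acid synthesis, and cholesterol synthesis and uptake), the members that passed were lower. Over all genes tested, 0.733% passed as lower. LXR receptors sense oxysterols and switch on genes that export cholesterol, while SREBP factors drive its synthesis and uptake when sterols are short. ABCA1, the LXR target that loads cholesterol on apolipoproteins, was at 49.2 and 42.2 CPM in the controls and 29.1 and 29.7 in the wild-type libraries. The wild-type replicates almost coincided, and the fall was 0.64 on the log2 scale (SE 0.07, edgeR adjusted p = 5.15e-07). The related transporter ABCG1 was at 5.32 and 3.64 CPM in the empty vector libraries and 2.62 and 1.99 with added BCL7A (-0.96, SE 0.21, edgeR adjusted p = 0.006). MYLIP, the ubiquitin ligase that degrades the LDL receptor, fell by 0.32 (SE 0.08). ABCA1 held its call without each library, while ABCG1 and MYLIP lost theirs without empty vector replicate 1 or wild-type replicate 2. These 3 were the calls among 9 LXR genes tested (median -0.15). The list had 1 call when empty vector replicate 1 or wild-type replicate 2 was dropped, with medians of -0.10 and -0.08.

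SCD, the desaturase that makes oleate, was at 726 and 575 CPM in the control pair and 509.6 and 441 in the wild-type pair. The controls differed between themselves nearly as much as the groups did, and the fall of 0.45 (SE 0.09, edgeR adjusted p = 0.0311) was not called without either wild-type replicate. FADS1, the delta-5 desaturase, fell by 0.24 (SE 0.06), a call that ended without empty vector replicate 1 or wild-type replicate 2. They were 2 of 11 fatty acid synthesis genes (median -0.12). The calls were 4 when empty vector replicate 2 was dropped, 1 when empty vector replicate 1 or wild-type replicate 1 was (median -0.22 in the latter case) and 0 when wild-type replicate 2 was. With the GC and length correction there was 1. Of 23 cholesterol synthesis and uptake genes, 2 were lower and 0 higher, with a median of -0.14. The sterol oxidase MSMO1 was at 109.5 and 93.7 CPM in the controls and 90.01 and 79.99 in the wild-type libraries (-0.26, SE 0.06). The transcription factor gene SREBF2 was at 449 and 432 CPM in the controls and 392 and 388 CPM with wild-type BCL7A (-0.18, SE 0.05). MSMO1 lost its call without empty vector replicate 1 or wild-type replicate 2 and SREBF2 without either empty vector replicate. The list count became 0 or 8 when empty vector replicate 1 or 2 was dropped, and 6 or 1 when wild-type replicate 1 or 2 was, all of them lower. The median moved with it, to -0.05 or -0.23 for the empty vector replicates and to -0.21 or -0.07 for the wild-type replicates. HMGCS1, CYP51A1 and INSIG1 stood at -0.29, -0.31 and -0.23 without passing. The sterol regulatory element searched (TCACNCCAC, both strands) was found in the promoter window of SREBF2 and in 1.09% of the windows of lower genes, beside 1.11% of those of all genes tested.

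Of 29 integrated stress and unfolded protein response genes, 3 were lower and 0 higher, with a median of -0.10. Over all genes tested, 0.733% passed as lower. SLC7A11, the cystine importer that feeds glutathione synthesis, was at 14.3 and 13.4 CPM in the empty vector libraries and 8.87 and 8.83 with added BCL7A. Replicates nearly coincided within both groups, a fall of 0.64 (SE 0.11, edgeR adjusted p = 0.000486). The serine synthesis enzyme PSAT1 was at 152 and 145 CPM in the control pair and 118 and 117 in the wild-type pair (-0.34, SE 0.05, edgeR adjusted p = 0.000154). PHGDH, the first enzyme of that pathway, fell by 0.22 (SE 0.05), a call that ended without empty vector replicate 2 or wild-type replicate 2. When wild-type replicate 2 was dropped, the list had 5 calls and a median of -0.05, and the GC and length correction called 8 as lower. Others of the list did not pass: the transcription factor ATF4, which drives many of them, stood at -0.09, the asparagine synthetase ASNS at -0.10, TRIB3 at -0.11 and the chaperone HSPA5 at 0.14. SLC7A3, an importer of cationic amino acids that is not on the list, was at 13.1 and 11.9 CPM in the controls and 8.18 and 6.88 in the wild-type libraries (-0.73, SE 0.13, edgeR adjusted p = 0.000569). ASS1, the argininosuccinate synthase, likewise outside it, was near 1 to 2 CPM and was called at -1.09 (SE 0.29), which ended without any 1 of the 4 libraries.

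Some further genes of amino acid metabolism were picked after their values were seen, from no list, and support no statement about amino acid genes as a group. HAAO, an enzyme of tryptophan breakdown, was higher (0.36, SE 0.08), a call that ended without either empty vector replicate. The alanine transaminase GPT2 was at 92.2 and 90.8 CPM in the empty vector libraries and 76.2 and 73.7 with added BCL7A (-0.29, SE 0.05), and its call held without each library. The branched-chain transaminase BCAT1 was at 539 and 476 CPM without and 405 and 445 CPM with added BCL7A (-0.25, SE 0.06), a call lost without empty vector replicate 1 or wild-type replicate 1. CTH, which makes cysteine from cystathionine (-0.44, SE 0.10), lost its call without empty vector replicate 1 or wild-type replicate 2. The mitochondrial carboxykinase PCK2 (-0.31, SE 0.07) lost its call without either empty vector replicate or wild-type replicate 2, and the transporter SLC7A7 (-0.35, SE 0.07) without empty vector replicate 1. The ATF4 amino acid response element searched (TGATGNAA, both strands) was found in the windows of 5 of the 27 stress response genes that have one (18.5%) and in those of 2 of 92 lower genes (2.17%), BCAT1 and SNAPC3. It was found in 1.67% of the windows of all genes tested and in 3.67% of all windows.

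Among the remaining falls, TERT, the catalytic subunit of telomerase, was at 19.1 and 21.4 CPM in the control pair and 10.6 and 13.3 in the wild-type pair (log2 fold change -0.76, SE 0.11, edgeR adjusted p = 2.25e-05). DEPTOR, an inhibitor bound to mTOR, was at 28.4 and 26.3 CPM in the controls and 16.6 and 17.9 in the wild-type libraries (-0.67, SE 0.09, edgeR adjusted p = 1.09e-05). VEGFA, the angiogenic growth factor, was at 30.99 and 28.4 CPM in the empty vector pair and 19.4 and 19.96 CPM in the wild-type pair (-0.59, SE 0.09, edgeR adjusted p = 5.63e-05). In all 3 the groups were far apart relative to the replicates. VEGFA was the 1 lower gene among 32 of glycolysis and the hypoxia response, and P4HA2, a collagen prolyl hydroxylase, the 1 higher (0.41, SE 0.07). The median of the 32 was 0.02, and 0.733% of all genes tested passed as lower and 0.885% as higher. TRIB2, a pseudokinase scaffold, was at 115 and 119 CPM in the empty vector libraries and 81.9 and 88.1 with added BCL7A (-0.46, SE 0.05, edgeR adjusted p = 1.46e-06). AK5, an adenylate kinase, was at 8.101 and 9.16 CPM in the controls and 4.74 and 4.62 CPM with wild-type BCL7A (-0.88, SE 0.14, edgeR adjusted p = 0.000113). CLCN4, an endosomal chloride and proton exchanger, was at 9.83 and 10.2 CPM without and 5.24 and 6.28 CPM with added BCL7A (-0.80, SE 0.12, edgeR adjusted p = 9.4e-05). The metalloprotease gene ADAM28 fell by 0.74 (SE 0.14), the galectin-related LGALSL by 1.18 (SE 0.24) and CCDC85C by 0.60 (SE 0.08). The calls of all genes of this paragraph held without each library. In 1 of the largest falls, ACP6 (-1.24, SE 0.32), a lysophosphatidic acid phosphatase at 1.46 and 1.39 CPM in the empty vector pair and 0.598 and 0.601 CPM in the wild-type pair, the call instead ended without any 1 of the 4 libraries.

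Among 25 p53 targets tested, the pro-apoptotic BAX (0.23, SE 0.06) and the ferredoxin reductase FDXR (0.36, SE 0.08) were higher and 0 were lower, where 1.62% of all genes tested passed. Neither call held without empty vector replicate 1, and that of BAX was also lost without wild-type replicate 1. MDM2, CDKN1A and ZMAT3 stood at 0.12, 0.15 and 0.14 without passing, and the list median was 0.12. The list had 0 calls and a median of 0.07 without empty vector replicate 1, a median of 0.07 without wild-type replicate 1, and 4 calls without wild-type replicate 2. With the GC and length correction 5 were higher and 1 lower. Of 17 BCL2 family genes, BAX was higher, and BCL2 (-0.19, SE 0.05) and its antagonist BMF (-0.20, SE 0.05) were lower. BCL2 lost its call without empty vector replicate 1, and BMF without empty vector replicate 1 or either wild-type replicate. Of 26 B cell transcription factors, SPIB (0.26, SE 0.06) and FOXO1 (0.29, SE 0.06) were higher. Without empty vector replicate 1 that list had 0 calls, and 4 (1 higher, 3 lower) without wild-type replicate 2. SPIB lost its call without empty vector replicate 1 or wild-type replicate 1, and FOXO1 without empty vector replicate 1 or wild-type replicate 2. Neither edgeR, DESeq2 nor limma-voom called, in the fit of all libraries, any of 30 S phase genes, 27 G2 and mitosis genes, 28 MYC and ribosome biogenesis genes, 30 ribosomal protein genes, 25 nuclear oxidative phosphorylation genes or 18 Toll-like receptor genes. At an unadjusted edgeR p under 0.05 there were 4, 3, 4, 0, 2 and 4 of them in that order, and their medians lay between -0.04 and 0.04. With a library left out or the GC and length correction, each of these lists but that of Toll-like receptors gave calls. The correction called 1 S phase, 1 G2 and mitosis and 1 MYC gene. Dropping empty vector replicate 2 called 1, 3 and 1 of those lists. Dropping wild-type replicate 1 called 1 S phase and 2 G2 and mitosis genes as higher and 1 MYC and 1 oxidative phosphorylation gene as lower. Dropping wild-type replicate 2 called 1 G2 and mitosis gene as lower and 3 oxidative phosphorylation genes as higher. The ribosomal protein genes turned with the wild-type library used: 16 were called lower without wild-type replicate 1 and 2 higher without wild-type replicate 2. Of 13 mitochondrial transcripts, MT-ND6 (-0.33, SE 0.07) and MT-ATP8 (-0.29, SE 0.06) were lower. Both calls ended without empty vector replicate 1 or wild-type replicate 2, and that of MT-ATP8 without wild-type replicate 1 as well. Without empty vector replicate 2, 6 of the 13 were lower.

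Over the 30 lists together, 57 of 650 genes tested were called (8.77%), 33 higher and 24 lower. The lists were drawn up around B cell and lymphoma biology with earlier results of these data known, so their share beside the 1.62% of all genes is a description. The 57 became 29 without empty vector replicate 1. Single calls not yet given were the heat shock protein HSPB1 (0.21, SE 0.06), the linker histone H1-2 (0.66, SE 0.18) and the chromatin remodeller CHD2 (-0.26, SE 0.05). All 3 calls ended without empty vector replicate 1, HSPB1 also without wild-type replicate 1, and H1-2 also without empty vector replicate 2 or wild-type replicate 1. TRAC, the one T cell marker past the test, was at 1.502 and 2.29 CPM in the control pair and 3.91 and 2.87 in the wild-type pair, and lost its call without empty vector replicate 1 or wild-type replicate 1.

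Called genes differed from the rest in their level and sequence composition. Of genes at a mean under 1 CPM, 0.0786% were called, of those from 1 to 10 CPM 1.23%, from 10 to 100 CPM 2.46% and from 100 CPM up 2.48%. Higher genes had a median GC content of 52.2% and lower genes one of 45.5%, against 48.2% for genes not called. Their median transcript lengths were 3242 and 4439 bases, against 2887 bases. Across 8913 genes at 10 CPM or more, log2 fold change had a Spearman correlation of 0.27 with GC content and -0.15 with length. The replicates also differed along these features, though not alike in both groups. The log ratio of the empty vector replicates correlated with GC content at -0.44 and with length at 0.20. That of the wild-type replicates correlated with length at -0.53 and with GC content at -0.005. A correction of each library for both trends called 460 genes, of which 268 were among the 276, in the same direction. Among the genes chosen by the naming rule, that correction ended the calls of SCD, MT-ND6, MT-ATP8 and H1-2, and those of the others, such as CR2, TERT and ABCA1, held.

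Some called genes are neighbours. Within 100 kb of each other lay 12 pairs of called genes, formed by 18 genes, of which 10 pairs moved the same way and 2 opposite ways. They include CR2 with CR1, LTA with TNF and LTB, FCRL1 with FCRL2, IGHG1 with IGHG3, and OXER1 with HAAO 2828 bases apart on chromosome 2, both higher. Calls of IGHG3 (lost without empty vector replicate 1 or wild-type replicate 2), HAAO (without either empty vector replicate) and OXER1 (without any 1 of the 4 libraries) are fragile. The opposite pairs are those of CD27 with CD27-AS1 and with VAMP1, whose calls are also fragile: both ended without either empty vector replicate, and besides without wild-type replicate 1 and 2 respectively. Pairs were picked by distance after the calls were known.

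The same construct in OCI-LY1, measured in 4 other libraries at day 10, gives a comparison that shares no library with this one. Line and day cannot be told apart there. In OCI-LY1, BCL7A rose further, from a mean of 156 CPM by 1.88 on the log2 scale, and 1951 genes were called (11.4%), 6.23% of all genes tested as higher and 5.21% as lower. Both lines called 72 genes, which is 26.1% of the VAL calls and 3.69% of the OCI-LY1 calls. Of these, 61 moved the same way (30 higher, 31 lower) and 11 opposite ways. The sign was shared by 69.6% of the 276 genes, against 51.6% of all genes tested. The interaction test of line called 663 genes (3.89%), 1.25% of all genes tested as higher in VAL relative to OCI-LY1 and 2.63% as lower, and among them were 74 of the 276 (26.8%). That count of 663 moved to 396 without empty vector replicate 1 and to 1591 without wild-type replicate 2.

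**Figure D4:**
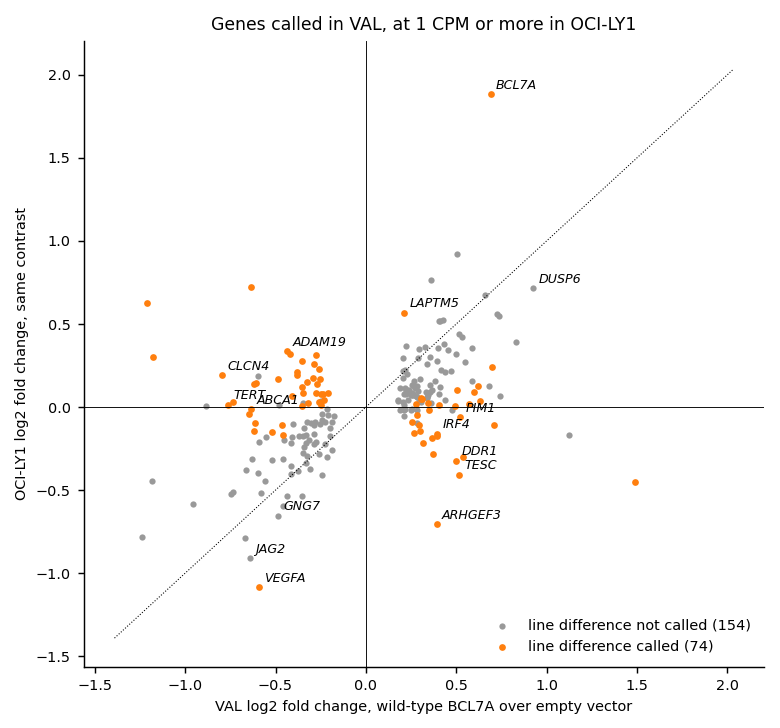
Each point is 1 of the 228 genes called in VAL that reach 1 CPM in OCI-LY1, with the log2 fold change, wild-type BCL7A over empty vector, in VAL on the x axis and in OCI-LY1 on the y axis. Orange points (74) pass the test of the line difference, and the dotted line marks equal changes.

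VEGFA fell in both lines, by 0.59 in VAL and by 1.09 in OCI-LY1. DUSP6 rose in both, by 0.92 and 0.71, as did RAG1 (0.72 and 0.56), TP63 (0.53 and 0.42) and FOXO1 (0.29 and 0.35). The line difference was not called for these 4 (edgeR adjusted p = 0.726, 0.669, 0.658 and 0.82). Several of the clearest VAL changes did not pass in OCI-LY1, and the difference between the lines itself passed. PRKCB stood at 0.03 in OCI-LY1 against 0.63 in VAL (difference 0.60, edgeR adjusted p = 0.00191), PIM1 at -0.06 against 0.52 (0.58, edgeR adjusted p = 0.000168), and IRF4 at -0.16 against 0.39 (0.55, edgeR adjusted p = 0.00232). TERT stood at 0.01 in OCI-LY1 against -0.76 in VAL (-0.78, edgeR adjusted p = 0.000627), ABCA1 at -0.01 against -0.64 (-0.62, edgeR adjusted p = 9.48e-05) and SLC7A11 at -0.04 against -0.64 (-0.60, edgeR adjusted p = 0.0103). LTB was called in both lines in opposite directions, at 0.31 in VAL and -0.21 in OCI-LY1 (difference 0.53, edgeR adjusted p = 0.000168). So was DDR1, a collagen receptor kinase, at 0.50 and -0.32, and ADAM19, a metalloprotease, at -0.44 and 0.34. MSMO1 fell in VAL (-0.26) and rose in OCI-LY1 (0.23), although its VAL call ended without empty vector replicate 1 or wild-type replicate 2. For TNF the difference was not called (0.74 in VAL, 0.06 in OCI-LY1, edgeR adjusted p = 0.0883). CR2 and SERPINA9 cannot be compared, since OCI-LY1 with empty vector held a mean of 0 and 0.126 CPM of them.

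VAL cells given delta27-BCL7A were measured at the same day and against the same empty vector libraries, so the values are set side by side without a test between the constructs. Against those libraries 875 genes were called (5.13%), 427 higher (2.5%) and 448 lower (2.63%). BCL7A itself was at 490.2 and 485 CPM in the 2 delta27-BCL7A libraries, close to its level with the wild type. For CR2 the delta27-BCL7A libraries were at 23.1 and 21.9 CPM, for TNF at 5.35 and 5.07, for SERPINA9 at 13.7 and 13.4 and for PRKCB at 19.3 and 19.2. In all 4 genes both values lie below both wild-type libraries, within the range of the empty vector libraries for CR2 and PRKCB and below it for TNF and SERPINA9. TERT was at 21 and 22.02 CPM with delta27-BCL7A, DEPTOR at 26.2 and 27.1, SLC7A11 at 13.4 and 15.1 and PSAT1 at 154 and 163. Those values lie above both wild-type libraries of each gene. FCRL1, in contrast, was at 35.6 and 35.8 CPM with delta27-BCL7A, below both empty vector libraries (log2 fold change -0.50, edgeR adjusted p = 0.000414), as it was with the wild type. ABCG1 likewise stood at -1.27 with delta27-BCL7A (edgeR adjusted p = 0.000356) and -0.96 with the wild type, and SCD at -0.58 (edgeR adjusted p = 0.00462) and -0.45. ABCA1 stood at -0.27 with delta27-BCL7A (edgeR adjusted p = 0.0135) and -0.64 with the wild type. MSMO1, FADS1, MYLIP, FCRL2 and CD86 were called lower with both constructs. The wild-type call of each of them ended without empty vector replicate 1. Since both comparisons use the same empty vector libraries, a fall shared by the constructs is not independent evidence. Of 23 cholesterol synthesis and uptake genes, 15 were called lower and 0 higher with delta27-BCL7A (median -0.33), beside 2 lower with the wild type. PTPN6 fell with delta27-BCL7A (-0.24, edgeR adjusted p = 0.0193) where it rose with the wild type, and MT-ATP8 rose (0.44, edgeR adjusted p = 0.000205) where it fell with the wild type.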

How the data were processed

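The deposited tables give raw gene counts for each library in a table of its own, as whole numbers against versioned Ensembl identifiers with 5 closing lines for reads given to no gene, per the file values. Per the submitters' processing notes, the tools were edgeR, DESeq2, HTSeq 0.11.2, STAR 2.6.1b and R 3.6.1, with the GRCh38 build. The annotation release and the strand setting of the counting are not given in the sources used here. Of 60603 genes, 58483 matched GENCODE release 29, which gave coordinates, and 60261 had a symbol. The closing lines stayed out of library sizes. As shares of gene counts and closing lines together, reads of no annotated feature were 9.23% to 10.8% in the 4 VAL libraries compared. Those of low alignment quality were 4.72% and 5.76% in the controls and 6.00% and 6.37% in the wild-type libraries.

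Counts were fitted here with edgeR 4.0.16 (R 4.3.3): TMM scaling, filterByExpr at a minimum count of 10, and the robust quasi-likelihood model over 12 libraries with 6 group means (6 residual degrees of freedom, median 35.2 with information shared between genes). The two-sided p-values of 17057 genes were adjusted by Benjamini and Hochberg's method and called at 0.05. CPM values are TMM-scaled. The fit was tested on simulated data.

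The members and the 37 gene lists, 7 of them marker lists, were chosen with earlier results of these data known. Of 759 list genes, 756 matched. Named genes were BCL7A, the 15 largest protein-coding changes in each direction at 1 CPM or more with groups apart, every list member past the threshold (or else the 2 of smallest p), the 8 smallest p in each direction, the 2 largest non-coding changes in each direction, and the 6 largest shared, opposite and line-different changes of each kind. Others are said to be picked after their values were seen. A few genes that the rule gave are not reported here. Alternatives were RLE scaling, DESeq2 1.42.0, limma-voom (limma 3.58.1), other filters, fewer libraries, the replicate number as a block, a test against a log2 fold change of 1, a correction for GC content and length (GC known for 98.9% of genes tested), and each library left out, where the remaining library of a group takes its spread from the others.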

Additional observations from a re-analysis of the deposited data

Results flagged for a closer look

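For 38 of the genes that the naming rule gave (BCL7A and 121 others), the change with wild-type BCL7A differed between the lines. The test was that of the interaction (edgeR, adjusted over all genes). The rule took some of the 38 because they passed this same test or were called in opposite directions in the lines. Others were taken for their VAL change, which enters the difference tested. The count of 38 therefore reflects that selection and is no rate. Over all 17057 genes tested, 663 passed (3.89%). Values are the VAL log2 fold change minus that of OCI-LY1, and line and day cannot be told apart. Genes that were higher in VAL relative to OCI-LY1 were DAB2IP (0.82), PRKCB (0.60), IRF4 (0.55), LTB (0.53), VEGFA (0.49), HLA-B (0.40), CD27 (0.26), PIM1 (0.58), CD99 (0.49), PLEKHG1 (0.55), DDR1 (0.82), ARHGEF3 (1.10), RND1 (0.84), TESC (0.92) and CORO2B (1.94). Genes that were lower in VAL relative to OCI-LY1 were BCL7A (-1.19), LRRC14B (-1.47), CLCN4 (-0.99), TERT (-0.78), ADAM28 (-0.77), BICRAL (-0.35), MSMO1 (-0.49), ABCA1 (-0.62), FCRL1 (-0.48), FCRL2 (-0.66), TNFRSF17 (-0.58), RGS13 (-0.32), JCHAIN (-0.30), MT-ND6 (-0.48), MT-ATP8 (-0.47), SLC7A11 (-0.60), TRIB2 (-0.29), IGHE (-0.37), ENSG00000281468 (-1.84), TMEM272 (-1.36), ADAM19 (-0.77), PRICKLE1 (-0.74) and FGD4 (-0.59). BCL7A and VEGFA were called the same way in both lines, BCL7A at 0.69 in VAL and 1.88 in OCI-LY1 and VEGFA at -0.59 and -1.09. Some of these genes lie at under 3 CPM in each VAL library compared (CORO2B, LRRC14B, ENSG00000281468), and their VAL calls ended without at least 1 library.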

How the results depend on the processing

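BCL7A kept its rise under every alternative but the minimum log2 fold change of 1, where its log2 fold change of 0.69 was not called (edgeR adjusted p = 1). Its value without each library in turn lay between 0.66 and 0.71. The count of 276 called genes became 126 with the 4 libraries alone, 146 with VAL libraries alone, 180 with DESeq2, 460 with the GC and length correction, 508 with that correction and the replicate block, and 0 with the minimum fold change. Leaving out 1 library gave 112 to 497. RLE scaling (273), limma-voom (257), a minimum count of 50 (281) and no filter (351) stayed within 1.5 times. The labels do not say whether equal replicate numbers mark paired samples. Replicate deviations of empty vector and wild-type BCL7A in VAL had a correlation of -0.0025, which cannot decide it. The replicate block gave 281 calls, 258 of them shared. The 57 calls among list genes became 29 with the 4 libraries alone, 31 with VAL alone, 93 with the GC and length correction and replicate block, 0 with the minimum fold change, and 29 to 80 without 1 library. The 663 line differences became 396 to 1591 without 1 library. OCI-LY1 calls (1951) lay between 1301 and 1987. These alternatives include the minimum log2 fold change of 1, under which 0 genes were called, so every called gene lost its call there. Of 1781 values for the 121 other named genes under these alternatives, 361 lost a call, 22 gained one and 3 changed sign without passing. The 3 were RPL5 and RPL4 without wild-type replicate 2 and KLRD1 without wild-type replicate 1, with values without 1 library of -0.24 to 0.0075 for RPL5, -0.17 to 0.039 for RPL4 and -3.23 to 0.021 for KLRD1. RPL5 and RPL4 were called lower without wild-type replicate 1. Of 3818 genes with a mean under 1 CPM, 3 were called. The cause of these movements was not tested.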

Other observations

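Genes of the actin and tubulin cytoskeleton, picked after their values were seen and so given without any statement about the group, were among the calls. TPM4, a tropomyosin, was at 78.3 and 77.99 CPM in the controls and 97 and 96.4 in the wild-type libraries (log2 fold change 0.31, SE 0.05), the actin elongation factor VASP at 51.2 and 47.5 CPM without and 64.96 and 60.5 CPM with added BCL7A (0.35, SE 0.06), and its relative ENAH at 48.1 and 40.05 CPM in the empty vector pair and 61.6 and 59.5 CPM in the wild-type pair (0.46, SE 0.07). These 3 calls held without each library. The myosin heavy chain MYH9 (0.20, SE 0.05), the calponin CNN2 (0.34, SE 0.06) and the tubulin TUBA4A (0.28, SE 0.05) were higher too, but all 3 calls ended without empty vector replicate 1, and that of MYH9 also without empty vector replicate 2 or wild-type replicate 2. Other called genes of the cytoskeleton were lower: the actin-binding ABLIM1 (-0.26, SE 0.05), the myosins MYO9A (-0.32, SE 0.07) and MYO1G (-0.31, SE 0.08), and the kinesin KIF21A (-0.41, SE 0.11). These calls ended without empty vector replicate 1 for ABLIM1 and MYO9A, without empty vector replicate 2 or wild-type replicate 1 for MYO1G, and without any 1 of the 4 libraries for KIF21A.

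Genes of cyclic AMP signalling, picked in the same way, went both ways. The phosphodiesterase PDE4B was at 10.5 and 10.7 CPM in the empty vector libraries and 17.2 and 17.2 with added BCL7A (0.70, SE 0.10), with nearly equal replicates and a call that held without each library. Its relative PDE4A was at 15.2 and 15.3 CPM in the controls and 12.2 and 11.04 CPM with wild-type BCL7A (-0.39, SE 0.10), and the protein kinase A catalytic subunit PRKACB at 104 and 98.02 CPM without and 81.6 and 85.2 CPM with added BCL7A (-0.28, SE 0.06). PDE4A lost its call without either empty vector replicate or wild-type replicate 2, and PRKACB without empty vector replicate 1. E2F7, a repressor of cell cycle genes, was at 72.1 and 75.2 CPM in the empty vector pair and 88.95 and 95.97 CPM in the wild-type pair (0.33, SE 0.06) and held, while the S phase list held no call.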
